A study of Mus musculus with 12 samples.

Results

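The genes described here are 35 mouse genes of glycolysis and of the response to low oxygen, out of 35944 genes with matched transcripts. They were taken by name, for their known roles and not by a threshold on these measurements, and fall by role into 2 transporters, 14 glycolysis enzymes, 3 regulators of glycolytic flux, 3 genes of the oxygen-sensing system and 13 further hypoxia response genes. They were measured by RNA-Seq in 12 tumours of 4T1, a mouse mammary carcinoma line, grown under the skin of female BALB/c mice that were 6 to 8 weeks old when they received 100000 cells each. All 4 groups carried this allograft and all received extracellular vesicles (EVs) from the mouse endothelial line MS-1, injected beside the tumour from day 5 at 3 µg every 2 days until harvest on day 21. The EVs had been electroporated with a mimic of 1 of the 3 mouse miRNAs miR-142-5p, miR-222-3p and miR-183-5p, or with that of the nematode miRNA cel-miR-67 in the control group (ctrl). Each group held 3 tumours, and no group without EVs was analysed here. The labels number the tumours of a group from 1 to 3 and do not state how the mice were housed or whether the tumours were handled together, so p-values measure the spread between these tumours. The paper describes the RNA-Seq as that of 4T1 tumours from which cells were collected, and names no sorting by cell type for it. In such libraries fewer cells of a type and less RNA per cell cannot be told apart.

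Glycolysis converts glucose to pyruvate through a chain of cytosolic enzymes, and lactate dehydrogenase turns the pyruvate to lactate, which leaves the cell through monocarboxylate transporters. When oxygen is low, prolyl hydroxylases no longer mark the factor HIF-1α for destruction, and it binds with its partner ARNT to short hypoxia response elements beside its target genes, among them most glycolysis enzymes. Solid tumours that outgrow their vessels are a classic setting of this programme.

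The 3 mature mouse miRNAs that the mimics are named for are given first, as RefSeq lists them on GRCm38.p6, because every contrast turns on them. They may differ from the mimics in length at the 3′ end. The seed, the stretch from base 2 to base 8 that pairs with target mRNAs, is in capitals, and the 3 seeds differ from each other.
mmu-miR-142a-5p (the miR-142-5p of the labels): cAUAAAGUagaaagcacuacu
mmu-miR-183-5p: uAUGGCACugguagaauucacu
mmu-miR-222-3p: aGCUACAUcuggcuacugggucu
In the annotated 3′ untranslated regions (GENCODE on GRCm38), matches to these seeds were counted in the 35 genes and in all tested genes with an annotated region, without a test and without regard to the length of the region. Matches to the miR-142-5p seed were found in 3 genes, Pfkp, Pkm and Egln3 (8.57% of the 35, against 18.0% of genes). Matches to the miR-183-5p seed were found in Pfkfb4 and Bnip3l (5.71% against 12.9%), and matches to the miR-222-3p seed in Pgk1 and Ddit4 (5.71% against 12.5%). The sites of the genes that recur below, Bnip3l with 2 matches and Pgk1 and Pkm with 1 each, are shown with the match in capitals on the strand of the gene.
Bnip3l, miR-183-5p, chr14:66985788-66985794, minus strand: tttcatcgacaGTGCCATtgaactatggg
Bnip3l, miR-183-5p, chr14:66985258-66985264, minus strand: ataaacattttGTGCCATtaaagctctca
Pgk1, miR-222-3p, chrX:106203573-106203579, plus strand: ctctctgacgtATGTAGCctctggttagc
Pkm, miR-142-5p, chr9:59679058-59679064, plus strand: tggaaaccctgACTTTATcacagaagggc
A match is a description of the letters and not evidence of binding. None of the 7 genes with a match passed the test in the contrast of its miRNA against ctrl (DESeq2, lowest adjusted p = 0.99982), and Bnip3l, with its 2 miR-183-5p matches, was higher and not lower with miR-183-5p-EVs.

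Promoters of these genes are known for hypoxia response elements, whose core is ACGTG or GCGTG. Promoter windows of 250 bases before and 50 bases after the start of the gene were listed by RefSeq (GRCm38.p6) for 33 of the 35 genes, all but Ndrg1 and Bnip3l. On either strand, ACGTG was present in 24 of the 33 (72.7%, against 21.8% of all genes with a listed promoter) and GCGTG in 22 (66.7% against 35.2%). At least 1 of both cores was present in 31 genes (93.9% against 46.7%), and 11 genes held ACGTG 2 or more times (33.3% against 9.28%). A gene counted if any of its listed windows held the core. By window, ACGTG was present in 56.25% of 48 windows, against 19.6% of all 32851, and either core in 81.25% against 43.8%. The background took all listed genes, whether or not they were expressed in these tumours. ACGTG counts also lie inside CACGTG, a palindrome that is read on both strands. The upstream bases of 3 promoters are shown because in each at least 2 cores lie close together. They are those of the lactate dehydrogenase gene Ldha, of the phosphoglycerate kinase gene Pgk1 and of the mitophagy gene Bnip3. Capitals mark every ACGTG or GCGTG on either strand (CACGT and CACGC on the strand shown), merged where they overlap.
Ldha, chr7:46845554-46845803, plus strand: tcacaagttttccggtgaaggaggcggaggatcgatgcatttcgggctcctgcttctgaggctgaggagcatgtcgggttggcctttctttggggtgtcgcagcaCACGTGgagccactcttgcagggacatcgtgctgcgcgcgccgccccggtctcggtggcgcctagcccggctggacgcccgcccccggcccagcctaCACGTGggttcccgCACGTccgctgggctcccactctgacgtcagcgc
Pgk1, chrX:106186850-106187099, plus strand: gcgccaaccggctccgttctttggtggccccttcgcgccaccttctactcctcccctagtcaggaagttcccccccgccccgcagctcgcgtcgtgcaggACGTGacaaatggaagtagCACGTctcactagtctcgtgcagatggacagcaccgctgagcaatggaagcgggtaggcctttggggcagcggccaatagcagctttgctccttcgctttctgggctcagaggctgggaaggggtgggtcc
Bnip3, chr7:138909507-138909756, minus strand: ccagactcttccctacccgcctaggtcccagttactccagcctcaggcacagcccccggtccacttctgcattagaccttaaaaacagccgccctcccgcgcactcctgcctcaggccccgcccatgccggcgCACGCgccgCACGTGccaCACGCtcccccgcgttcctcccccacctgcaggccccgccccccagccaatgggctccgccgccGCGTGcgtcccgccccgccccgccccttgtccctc
The marked stretches start 145, 48 and 34 bases before the start of Ldha, 150 and 131 bases before that of Pgk1, and 117, 108, 99 and 35 bases before that of Bnip3.

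The libraries held between 20285968 and 27021401 estimated reads. All 35 genes passed the filter of at least 10 reads in at least 3 libraries, and the lowest value of any of them in any library was 226 reads, so counting error was small beside the spread between tumours. The 5 epithelial markers of 4T1 summed to between 1265 and 1855 TPM (a transcript's share of a library after correction for its length) in every group, and of 50 markers of 10 cell types Krt1 alone was at 0 in every library. Tumour 3 of the miR-183-5p group stood apart in its skeletal muscle markers, at 336 TPM summed over 5 genes against 13.6 to 25.7 TPM in the other tumours. A split that the labels do not name separated the 3 miR-222-3p libraries and miR-183-5p tumour 3 from the others by the share of reads that went to the mitochondrial pseudogene Gm28661. That share was under 1% in these 4 libraries and between 7.13% and 41.8% in the others, so it also varied widely among the others. It serves here only to mark the split. The split and the miR-222-3p group cannot be told apart.

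The glycolysis genes were among the most abundant of all transcripts. In ctrl tumours the mean level was 2095 ± 294 TPM (SD, n = 3) for Gapdh, the glyceraldehyde-3-phosphate dehydrogenase, and 2000 ± 168 TPM for Pkm, which encodes pyruvate kinase, ranks 62 and 66 among all genes. The aldolase gene Aldoa followed at 1485 ± 32.6 TPM, Ldha at 1477 ± 63.5 TPM and Pgk1 at 981 ± 42.7 TPM. These values leave out reads that went to near-identical copies of a gene, described below. On them the order of Gapdh and Pkm, and that of Aldoa and Ldha, did not hold beyond the spread between tumours. With copies added, Gapdh had 5219 ± 556 TPM in ctrl, above Pkm beyond that spread, and the mean of Eno1 was 1690 ± 269 TPM, above that of Aldoa. The leading hypoxia response gene was Ndrg1, a stress-induced gene of differentiation and growth arrest, at 886 ± 141 TPM, above Car9 at 256 ± 41.4 TPM and Bnip3 at 246 ± 35.6 TPM. Car9 encodes a carbonic anhydrase on the cell surface, and Bnip3 and Bnip3l encode receptors for the removal of mitochondria. Flux regulators lay at the low end, where Pfkfb4, a kinase and phosphatase that sets the level of fructose 2,6-bisphosphate, was lowest at 19.0 ± 0.948 TPM. Of isoforms of a step, Aldoc had 42.4 ± 5.90 TPM beside the 1485 of Aldoa, whereas the hexokinases Hk1 (83.8 ± 13.4) and Hk2 (84.0 ± 17.0) and the phosphofructokinases Pfkl (186 ± 19.0) and Pfkp (145 ± 7.66) lay closer together. The 35 genes together took between 1.12% of all TPM in miR-142-5p tumour 2 and 1.80% in miR-183-5p tumour 3, or 1.44% and 2.39% with copies added.

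**Figure D1:**
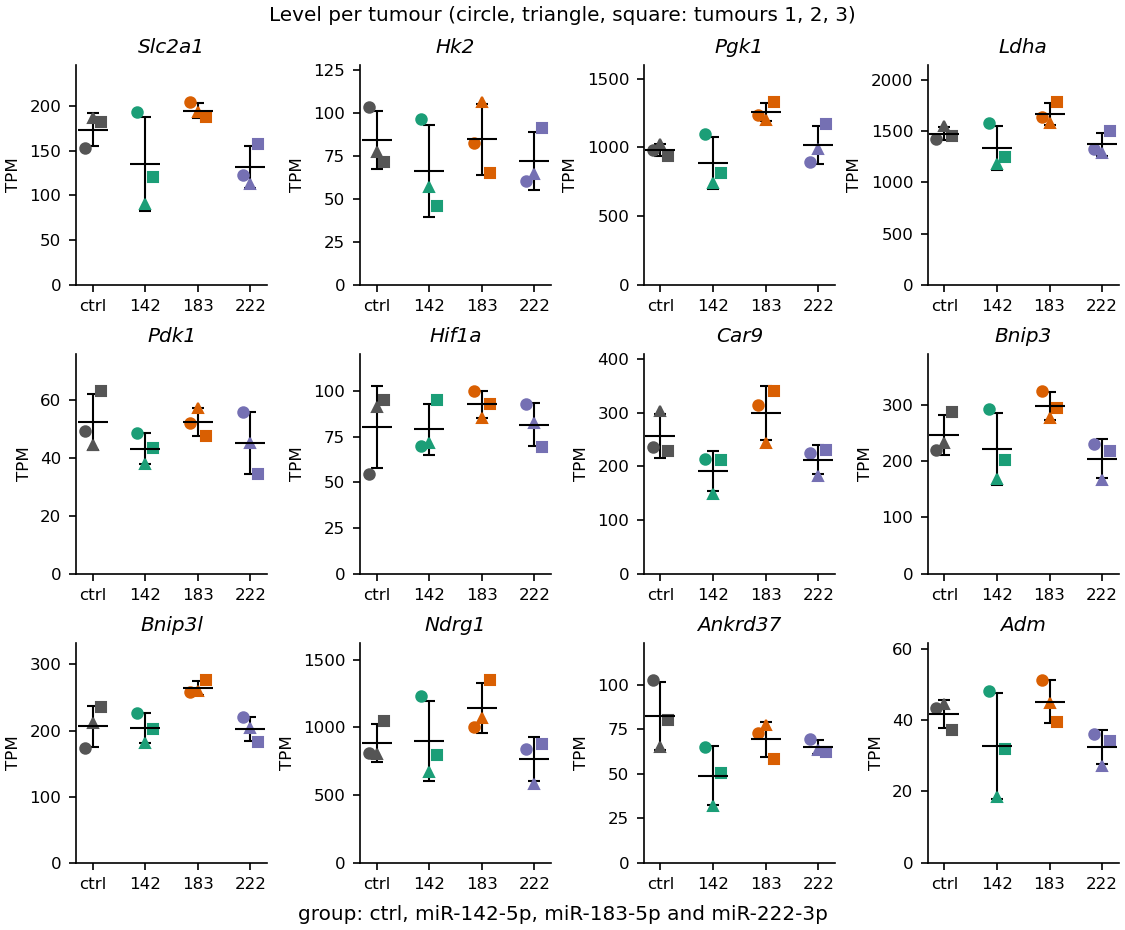
Level of 12 of the genes in each tumour, in TPM on a linear axis from 0, by group (each tick gives the number of the miRNA in the EVs); symbols mark tumours 1, 2 and 3 of a group, and the bar with whiskers gives the mean ± SD of 3 tumours. Slc2a1, Bnip3 and Adm show miR-142-5p tumour 1 far above the other 2 tumours of its group, and Bnip3l shows all 3 miR-183-5p tumours above the other 9.

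The genes moved together from tumour to tumour. For each gene, log2(normalised count + 1) was set against its mean over the 12 tumours, where a normalised count is a read count corrected for library size and transcript length. The mean deviation of the 35 genes with miR-183-5p was 0.236, 0.174 and 0.223 for tumours 1 to 3, and in ctrl it was 0.098, 0.0044 and 0.026. With miR-142-5p it was 0.214, -0.371 and -0.283, and with miR-222-3p it was -0.143, -0.208 and 0.028. The miR-183-5p tumours were thus alike and all high, and the miR-142-5p group held both a tumour within their range and the lowest 2 of the study. Tumour 3 of the miR-183-5p group had the highest value of 13 genes and miR-142-5p tumour 1 that of 8, while miR-142-5p tumour 2 had the lowest value of 14 genes. In miR-142-5p tumour 1, 31 genes lay above their mean, against 1 gene in tumour 2 and 2 genes in tumour 3 of that group. The within-group SD on this log2 scale had a median of 0.243 over the 35 genes, against 0.172 over the 8243 genes that were as abundant as the lowest of them, and ran from 0.124 for Hk1 to 0.464 for Hk2.

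**Figure D2:**
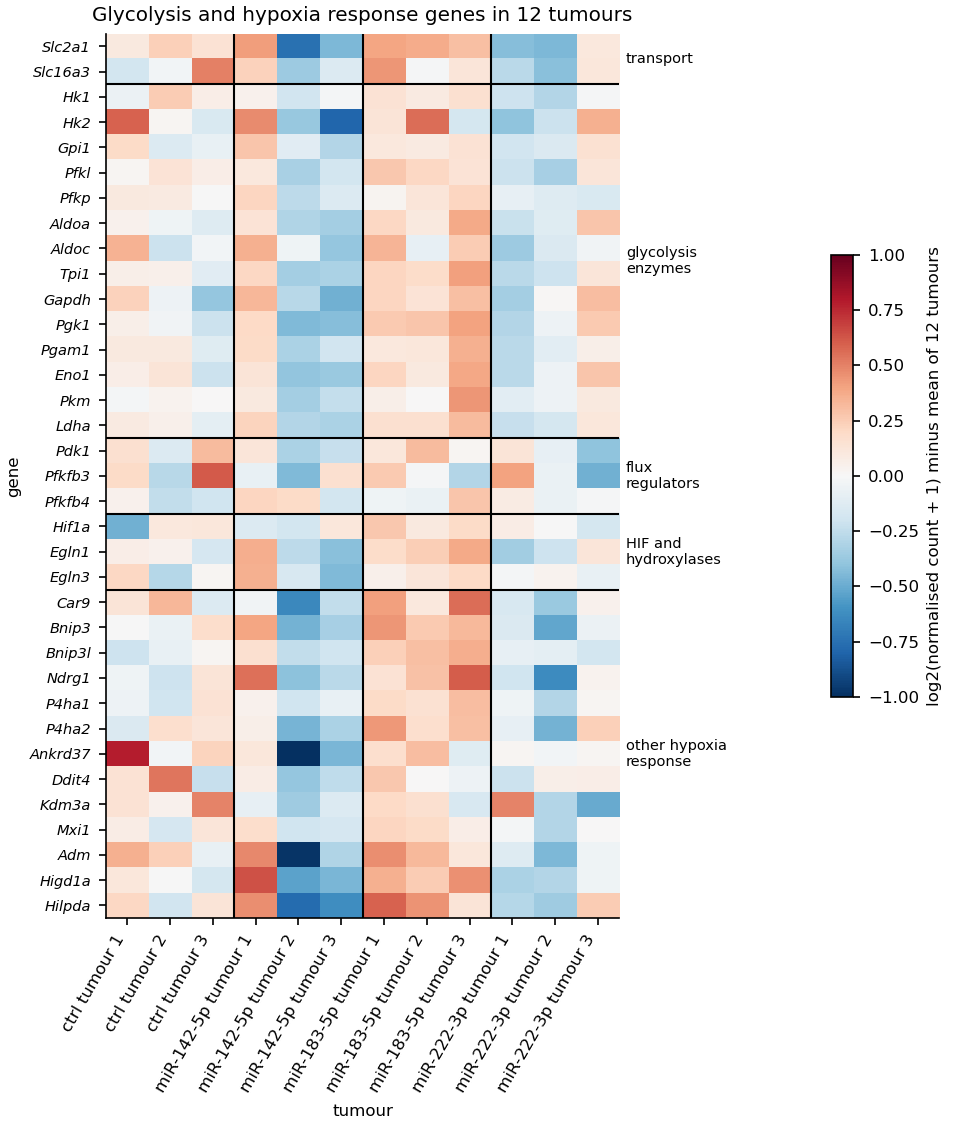
Log2(normalised count + 1) of each of the 35 genes (rows, by role) in each of the 12 tumours (columns, by group) minus the mean of that gene over all tumours, with colours capped at -1 and 1. Nearly whole columns share a colour, red in the 3 miR-183-5p tumours and miR-142-5p tumour 1, blue in miR-142-5p tumours 2 and 3, while the rows of Pfkfb3, Pfkfb4, Hif1a and Kdm3a break the pattern.

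As a description over 12 tumours, with no test, the correlation of a gene with the mean of the other 34 had a median of 0.82, and it exceeded 0.5 for 31 of the 35 genes, against 10.8% of other genes. After the group means were taken out the median was 0.74. All these points share their library, so that depth, tissue content and RNA quality are common to all genes of a tumour. The glucose transporter gene Slc2a1 had the highest value (r = 0.96), followed by Hilpda, which encodes a lipid droplet protein (0.94), the mitochondrial gene Higd1a (0.94), Ldha (0.94) and Bnip3 (0.94). Pfkfb3, like Pfkfb4, sets the level of fructose 2,6-bisphosphate. The lowest values belonged to Pfkfb3 (0.048), to Hif1a itself (0.12), to Pfkfb4 (0.15) and to the histone demethylase gene Kdm3a (0.23). The mRNA of Hif1a thus varied apart from that of most other genes of the list. As background, oxygen acts on HIF-1α mainly through the stability of the protein, which RNA-Seq does not measure.

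When the 4 groups were compared together, the miR-183-5p group had the highest mean for 30 of the 35 genes, against 28.7% of all genes, and the lowest for 0 of them, against 28.8%. The miR-142-5p group was lowest for 20 genes and the miR-222-3p group for 13, against 26.7% and 23.3% of all genes. Since the genes vary together, these counts are not independent of each other. The 5 genes with another order were Ankrd37, Ddit4, Kdm3a and Pfkfb3, highest in ctrl, and Pfkfb4, highest in the miR-142-5p group. A likelihood ratio test of any difference among the 4 groups (DESeq2, Benjamini-Hochberg adjustment over 15413 genes) called 0 of the 35 genes at an adjusted p of 0.05, where it called 0.0584% of all genes. At an unadjusted p under 0.05 it counted 8 genes, Hk1, Pgk1, Car9, Bnip3, Bnip3l, P4ha1, P4ha2 and Ankrd37 (against 4.74% of all genes), and edgeR's quasi-likelihood test called 0 and counted 2. Bnip3l (ENSMUSG00000022051.15) lies at chr14:66985239-67008877 and Car9 (ENSMUSG00000028463.14) at chr4:43506966-43513729 on GRCm38. The smallest adjusted p values were those of Bnip3l (adjusted p = 0.23, DESeq2) and Car9 (adjusted p = 0.33).

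The first contrast asked which of the genes differed between miR-142-5p-EVs and ctrl-EVs. None of the 35 passed (DESeq2 Wald test, Benjamini-Hochberg), where 0.00649% of all genes did. By direction 31 genes were lower and 4 higher, with a median log2 fold change of -0.13, against 48.9% of all genes higher and a median of -0.0050. At an unadjusted p under 0.05 there were 2 genes, both lower, Ankrd37 and Car9 (against 3.56% of all genes), and edgeR called 0 and counted 2. Ankrd37 (ENSMUSG00000050914.16, chr8:45996902-46005707), a short ankyrin repeat gene induced by hypoxia, had 508, 235 and 343 normalised counts in the treated tumours and 814, 462 and 549 in ctrl. The groups overlapped through treated tumour 1. Its log2 fold change was -0.75 (SE 0.27, adjusted p = 0.86, DESeq2), or 0.595 times the ctrl level. Car9 had 4406, 2886 and 3811 normalised counts against 4934, 5685 and 4110, a log2 fold change of -0.41 (SE 0.19, adjusted p = 1.0, DESeq2). Here again treated tumour 1 lay within the range of ctrl. Kdm3a was the sole gene whose groups did not overlap, on the lower side, where 2.94% of all genes did not overlap lower and 3.12% higher. It had 2420, 2001 and 2338 normalised counts against 2832, 2646 and 3621, and its log2 fold change of -0.43 (SE 0.23, adjusted p = 1.0, DESeq2) did not pass.

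These values rest on miR-142-5p tumour 1. Without it 2 genes passed and were lower in the remaining 2 tumours, Slc2a1 (log2 fold change -0.75, SE 0.18, adjusted p = 0.013, DESeq2) and Ankrd37 (-1.07, SE 0.26, adjusted p = 0.013), as 75 of all genes did (0.496%). In an alternative added after seeing the data, edgeR without this tumour called 0 of the 35 genes and 0 of all genes. Slc2a1 had 8174 normalised counts in tumour 1, above every ctrl tumour (6535, 7207 and 6743), and 3629 and 4481 in tumours 2 and 3, below every ctrl tumour. In an alternative added after seeing the data, the groups without tumour 1 did not overlap for 23 of the 35 genes, all lower, against 8.28% of all genes. Tumour 1 stood out by the values of these same genes. The share of all genes is therefore no matched background for any count without it, here or below. The labels do not set this tumour apart, and all 3 tumours stay in the values above. Its markers differed from those of tumours 2 and 3 of its group. Summed over 5 genes each, neutrophil markers stood at 1600 TPM against 969 and 980, erythroid markers at 680 against 282 and 339, fibroblast markers at 534 against 180 and 303, and 4T1 epithelial markers at 1855, the highest of the 12 tumours, against 1490 and 1265. Within the neutrophil and fibroblast lists, Ly6g (1.096 TPM against 1.62 and 1.28) and Pdgfra (9.51 against 18.1 and 23.7) were instead lower in tumour 1. S100a8, S100a9, Cxcr2, Csf3r, Col1a1, Col1a2 and Lum were higher there than in both other tumours of the group, and Dcn lay between them. The part of cell content in these values was not tested.

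The second contrast asked the same of miR-183-5p-EVs. Against ctrl, 31 of the 35 genes were higher and 4 lower, with a median log2 fold change of 0.19, where 47.4% of all genes were higher and the median was -0.011. None passed (DESeq2), as 0% of all genes did, and 2 genes, both higher, had an unadjusted p under 0.05 (against 3.22% of all genes). With edgeR 0 passed and 1 had an unadjusted p under 0.05. The groups did not overlap for 13 genes, all higher, against 4.42% of all genes higher and 4.75% lower. The 13 were Slc2a1, 5 glycolysis enzyme genes (Aldoa, Tpi1, Pgk1, Pgam1 and Ldha), the prolyl hydroxylase gene Egln1 and 6 further hypoxia genes (Bnip3, Bnip3l, Ndrg1, P4ha1, P4ha2 and Higd1a). Without miR-183-5p tumour 3, the one with muscle markers, the number was 16, against 7.34% of all genes, the median log2 fold change was 0.16, and again 31 genes were higher.

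Bnip3l had 7240, 7583 and 7927 normalised counts with miR-183-5p and 5323, 5824 and 6237 in ctrl, and every treated tumour was above every ctrl tumour. Its log2 fold change was 0.39 (SE 0.12, adjusted p = 0.99982, DESeq2), or 1.31 times the ctrl level. Pgk1 had 33125, 33455 and 36387 against 28712, 26878 and 23731, a log2 fold change of 0.38 (SE 0.19, adjusted p = 0.99982, DESeq2). P4ha1, the catalytic subunit of collagen prolyl hydroxylase, had 6678, 6485 and 7222 against 5645, 5083 and 6462, with the lowest treated tumour just above the highest ctrl tumour, a log2 fold change of 0.25 (SE 0.13, adjusted p = 0.99982, DESeq2). Of the genes without overlap the largest log2 fold changes were those of Ndrg1 and Bnip3l. Ndrg1 had 44353, 49069 and 60912 against 38976, 34697 and 43787, a log2 fold change of 0.39 (SE 0.25, adjusted p = 0.99982, DESeq2), and its lowest treated tumour was just above the highest ctrl tumour.

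**Figure D3:**
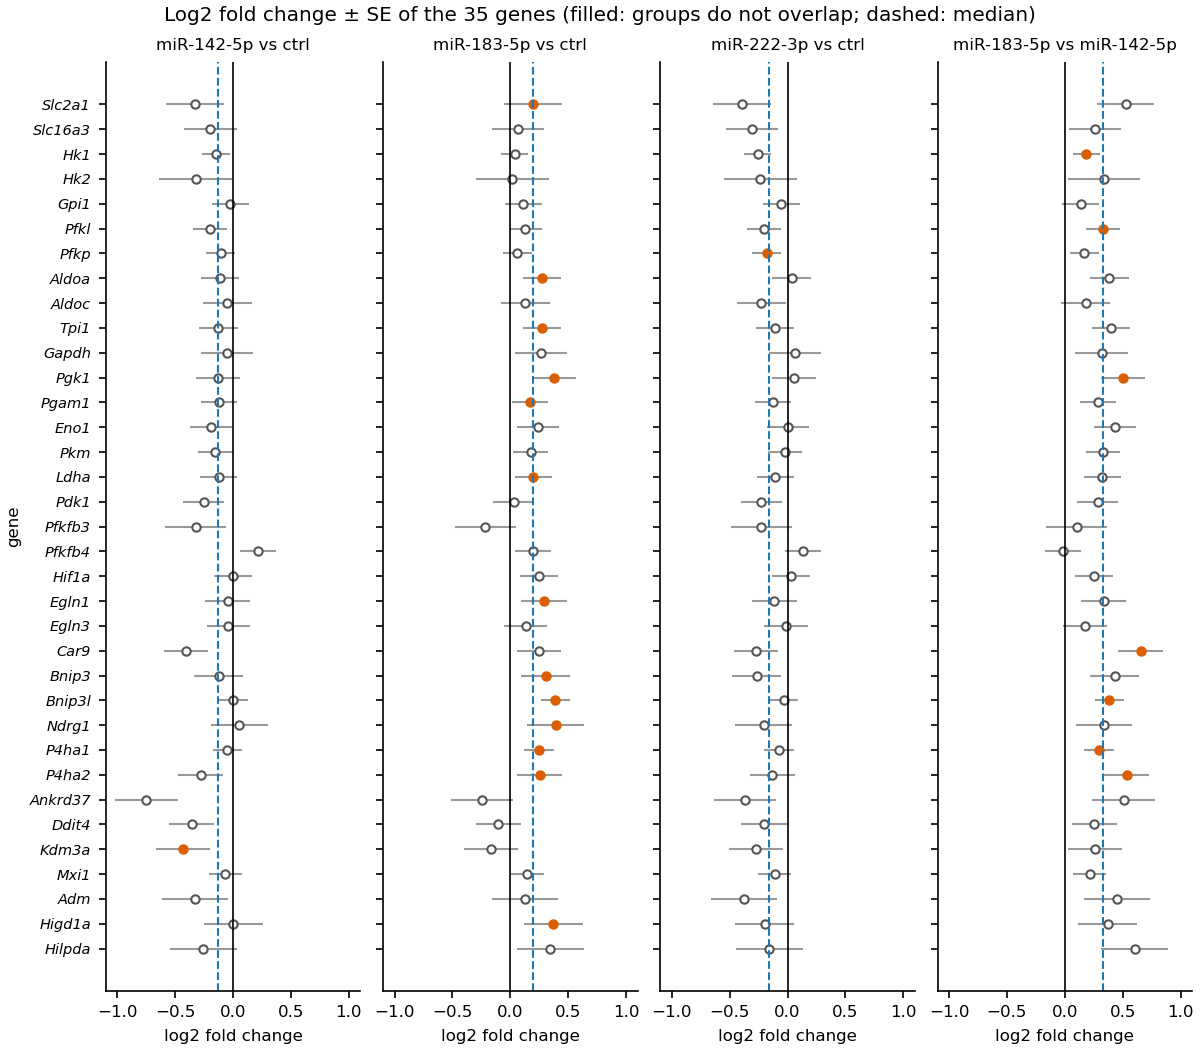
Log2 fold change ± SE (DESeq2) of each of the 35 genes in 4 contrasts; filled points are genes whose groups did not overlap in normalised counts, the dashed line is the median of the 35 and the solid line is 0. Most points lie left of 0 for miR-142-5p and miR-222-3p against ctrl and right of 0 for miR-183-5p against ctrl, with medians of -0.13, -0.16 and 0.19. Of these 4 contrasts the median is furthest from 0 between miR-183-5p and miR-142-5p.

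The third contrast, of miR-222-3p-EVs with ctrl-EVs, found 29 genes lower and 6 higher, with a median log2 fold change of -0.16 (all genes, 48.2% higher, median -0.0078). None passed (DESeq2), where 0.026% of all genes did, 1 gene had an unadjusted p under 0.05 (against 2.29% of all genes), and edgeR likewise called 0 and counted 1. That gene was Hk1, a hexokinase of many tissues, with 4109, 3873 and 4706 normalised counts against 4557, 5654 and 4965 in ctrl, a log2 fold change of -0.26 (SE 0.12, adjusted p = 1.0, DESeq2). Treated tumour 3 lay above ctrl tumour 1. Slc2a1 had 4544, 4473 and 6554 against 6535, 7207 and 6743, and treated tumour 3 was level with ctrl tumour 1 (log2 fold change -0.40, SE 0.25, adjusted p = 1.0, DESeq2). Pfkp was the sole gene without overlap, lower, where 2.56% of all genes did not overlap lower and 2.94% higher. It had 5915, 5721 and 5650 against 6685, 6663 and 6246 (log2 fold change -0.18, SE 0.13, adjusted p = 1.0, DESeq2). Because this group coincides with the library split, the part of that split in these values cannot be told apart from the treatment.

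By median log2 fold change the widest difference was that between miR-183-5p and miR-142-5p, though more genes were without overlap between miR-183-5p and miR-222-3p (19, against 7 here). Of the 35 genes 34 were higher with miR-183-5p, all but Pfkfb4, and the median log2 fold change was 0.33 (all genes, 49.6% higher, median -0.0027). None passed (DESeq2), where 0.0519% of all genes did, and 14 genes, all higher, had an unadjusted p under 0.05 (against 7.95% of all genes). These were Slc2a1, Pfkl, Aldoa, Tpi1, Pgk1, Eno1, Pkm, Ldha, Car9, Bnip3, Bnip3l, P4ha1, P4ha2 and Hilpda. With edgeR 0 passed and 10 had an unadjusted p under 0.05. The groups did not overlap for 7 genes, all higher (against 5.92% of all genes). Car9 had the smallest p, with 5992, 4850 and 6634 normalised counts against 4406, 2886 and 3811, a log2 fold change of 0.65 (SE 0.19, adjusted p = 0.12, DESeq2), or 1.57 times. Bnip3l had 7240, 7583 and 7927 against 6876, 5188 and 5361 (log2 fold change 0.38, SE 0.12, adjusted p = 0.19, DESeq2). P4ha2, the paralogue of P4ha1, had 2633, 2191 and 2399 against 2026, 1407 and 1559 (log2 fold change 0.53, SE 0.19, adjusted p = 0.32, DESeq2). In all 3 genes the nearest miR-142-5p tumour was tumour 1.

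This contrast depended on the same tumour. Without miR-142-5p tumour 1, 17 of the 35 genes passed, all higher with miR-183-5p, as 415 of all genes did (2.86%, DESeq2), whereas edgeR called 0 (lowest adjusted p = 0.11). The 17 were Slc2a1, Aldoa, Tpi1, Pgk1, Eno1, Pkm, Ldha, Egln1, Car9, Bnip3, Bnip3l, Ndrg1, P4ha2, Ankrd37, Adm, Higd1a and Hilpda. The largest log2 fold changes were those of Hilpda (1.098, SE 0.22, adjusted p = 0.00030, DESeq2), Slc2a1 (0.94, SE 0.18, adjusted p = 0.00014), Adm, which encodes the vasodilator adrenomedullin (0.91, SE 0.23, adjusted p = 0.0071), and Higd1a (0.85, SE 0.14, adjusted p = 1.1e-05). The test of any difference among the groups then passed for 9 genes, as for 239 of all genes (1.55%, DESeq2), and edgeR called 0. In the count added after seeing the data, 30 genes did not overlap, against 17.3% of all genes, with the limit on that background given above. Without miR-183-5p tumour 3, by contrast, 0 passed (DESeq2), 34 genes were higher, the median was 0.31, and 10 genes did not overlap, against 9.15% of all genes.

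Between miR-183-5p and miR-222-3p all 35 genes were higher with miR-183-5p, with a median log2 fold change of 0.30 (all genes, 49.3% higher, median -0.0035). None passed (DESeq2), where 0.0324% of all genes did, 12 had an unadjusted p under 0.05 (against 3.24% of all genes), and edgeR called 0 and counted 11. The groups did not overlap for 19 genes (against 4.59% of all genes). Bnip3l had 5813, 5749 and 5423 normalised counts with miR-222-3p, all below the 7240 of the lowest miR-183-5p tumour (log2 fold change 0.42, SE 0.12, adjusted p = 0.42, DESeq2). Bnip3 had 7347, 6491 and 6786 against 4910, 3769 and 5188 (log2 fold change 0.57, SE 0.21, adjusted p = 0.99965, DESeq2). In a fit of these 2 groups alone 1 gene passed, as 0.114% of all genes did, Higd1a, which encodes a hypoxia-induced protein of the mitochondrial inner membrane. It had 1950, 1809 and 2085 normalised counts against 1218, 1240 and 1476 (log2 fold change 0.57, SE 0.14, adjusted p = 0.035, DESeq2). In an alternative added after seeing the data, edgeR on these 2 groups called 0 of the 35 genes. Without miR-183-5p tumour 3, which shares the library split with the miR-222-3p group, 34 genes were higher with a median of 0.28, and 21 did not overlap, against 8.04% of all genes. Between miR-142-5p and miR-222-3p, 17 genes were higher and 18 lower, with a median of -0.018. In that contrast 0 genes passed or had an unadjusted p under 0.05 (DESeq2, where 0.0389% and 3.59% of all genes did, and likewise 0 with edgeR), and 0 genes were without overlap, where 2.9% of all genes did not overlap higher and 3.29% lower. Without miR-142-5p tumour 1, 12 genes did not overlap, all lower with miR-142-5p, against 8.67% of all genes, again with a tumour left out that stood out by these genes.

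By role, the 2 transporters differed in spread. Slc2a1 had 193, 90.5 and 121 TPM with miR-142-5p, 204, 193 and 187 with miR-183-5p, 123, 113 and 158 with miR-222-3p and 152, 187 and 181 in ctrl. The lactate exporter gene Slc16a3 had 43.9, 30.8 and 38.969 TPM, then 54.8, 38.5 and 43.0, then 35.4, 29.97 and 41.3, and 32.5, 40.3 and 60.6 in ctrl, in the same order. All 4 groups overlapped for Slc16a3.

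The 14 glycolysis enzyme genes had a median log2 fold change of -0.13 with miR-142-5p against ctrl, 0.17 with miR-183-5p and -0.11 with miR-222-3p. All 14 were higher with miR-183-5p and lower with miR-142-5p than in ctrl, without any passing. Ldha had 1582, 1177 and 1247 TPM with miR-142-5p, 1643, 1578 and 1789 with miR-183-5p, 1325, 1292 and 1505 with miR-222-3p and 1429, 1549 and 1452 in ctrl. The order was miR-183-5p tumours 3 and 1, then miR-142-5p tumour 1, then miR-183-5p tumour 2, with the other 8 tumours below. Hk2, the inducible hexokinase, was the most variable, at 96.5, 56.5 and 45.8 TPM, then 82.2, 106 and 65.1, then 60.2, 64.1 and 91.0, and 103, 77.3 and 71.4 in ctrl, with every group overlapping every other. Its log2 fold change with miR-183-5p against ctrl was 0.017 (SE 0.31). Gpi1 had the narrowest range in TPM, from 579 to 751 over all 12 tumours, though not in normalised counts, where the range was 1.49 times for Gpi1 and 1.39 times for Pfkp.

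The 3 flux regulators had median log2 fold changes against ctrl of -0.25 with miR-142-5p, 0.029 with miR-183-5p and -0.23 with miR-222-3p. Pdk1, the kinase that holds pyruvate dehydrogenase inactive, had 48.3, 37.7 and 43.3 TPM with miR-142-5p, 51.9, 57.3 and 47.6 with miR-183-5p, 55.8, 44.96 and 34.4 with miR-222-3p and 49.0, 44.5 and 63.0 in ctrl. Groups overlapped throughout, and with miR-183-5p its log2 fold change against ctrl was 0.029 (SE 0.18). Pfkfb3 had a log2 fold change of -0.22 (SE 0.26) and Pfkfb4 one of 0.20 (SE 0.16) in that contrast.

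Of the oxygen-sensing genes, Hif1a had 69.9, 71.7 and 95.1 TPM with miR-142-5p, 100.004, 85.1 and 93.0 with miR-183-5p, 92.7, 82.3 and 69.4 with miR-222-3p and 54.5, 90.9 and 94.9 in ctrl. The lowest of the 12 values was that of ctrl tumour 1. In normalised counts each treated group overlapped ctrl, and the miR-183-5p and miR-222-3p groups did not overlap, with 6698, 5930 and 6353 against 5848, 5545 and 4913. Log2 fold changes of Hif1a against ctrl were -0.0011 (SE 0.16) with miR-142-5p, 0.25 (SE 0.16) with miR-183-5p and 0.030 (SE 0.16) with miR-222-3p. Egln1 and Egln3 encode prolyl hydroxylases that mark HIF-1α for degradation and are themselves targets of it. Egln3 had 164, 122 and 108 TPM with miR-142-5p, 144, 145 and 156 with miR-183-5p, 145, 141 and 125 with miR-222-3p and 147, 116 and 149 in ctrl, and its groups overlapped ctrl in every contrast. Egln1 had log2 fold changes against ctrl of -0.046, 0.29 and -0.11 (SE 0.20 each).

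The 13 further hypoxia genes had median log2 fold changes of -0.26, 0.25 and -0.21 against ctrl, in the order miR-142-5p, then miR-183-5p, then miR-222-3p. Adm had 48.2, 18.5 and 32.0 TPM with miR-142-5p, 51.4, 44.9 and 39.4 with miR-183-5p, 36.2, 27.1 and 34.2 with miR-222-3p and 43.5, 44.6 and 37.3 in ctrl. Its log2 fold changes against ctrl were -0.33, 0.13 and -0.38 (SE 0.29 each), and 0 of them passed. Ddit4, an inhibitor of the growth kinase mTORC1, had 98.5, 75.7 and 89.7 TPM, then 122, 97.4 and 95.3, then 92.3, 105 and 100.1, and 102, 149 and 90.9 in ctrl. Here ctrl tumour 2 stood above all others. Mxi1, a repressor that competes with MYC for its partner, ranged from 36.3 to 51.8 TPM over all tumours. Ankrd37 ranged 3.24 times, from 31.8 TPM in miR-142-5p tumour 2 to 103 TPM in ctrl tumour 1, the widest range of the 35.

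Other genes of the same pathways were taken from 2 lists that hold none of the 35. Of 29 other glycolysis genes 24 passed the filter, and of 32 other hypoxia genes all did. None passed the test in any contrast, where between 0% and 0.0519% of all genes did (DESeq2). With edgeR none of them passed either. With miR-183-5p against ctrl, 28 of the 32 hypoxia genes were higher, with a median log2 fold change of 0.22, and 3 had an unadjusted p under 0.05, all higher (edgeR, 4). Of the 24 glycolysis genes 14 were higher, with a median of 0.089, and 4 had an unadjusted p under 0.05, 2 in each direction (edgeR, 2). Of all genes 3.22% had such a p in this contrast (DESeq2). Without miR-183-5p tumour 3, the one with muscle markers, 15 of the 24 were higher, with a median of 0.054. The largest log2 fold change among them was then 0.63 in place of 2.05, and 1 gene had an unadjusted p under 0.05 (DESeq2). Of the 32 hypoxia genes 28 were still higher without this tumour, with a median of 0.18. Against ctrl, miR-142-5p gave 8 of 32 hypoxia genes higher (median -0.081, 3 at an unadjusted p under 0.05, edgeR 4) and 8 of 24 glycolysis genes higher (median -0.086, 0 at an unadjusted p under 0.05, likewise edgeR). For miR-222-3p these were 13 of 32 (median -0.065, 1, edgeR 1) and 7 of 24 (median -0.073, 2, edgeR 1). Of all genes 3.56% had an unadjusted p under 0.05 with miR-142-5p against ctrl, and 2.29% with miR-222-3p (DESeq2). Between miR-183-5p and miR-142-5p, 28 of the 32 hypoxia genes were higher (median 0.33). Of them 12 had an unadjusted p under 0.05, 10 of these higher (against 7.95% of all genes with DESeq2, and 12 with edgeR). Without miR-142-5p tumour 1, 13 of these hypoxia genes and 2 of the glycolysis genes passed in this contrast (DESeq2, against 2.86% of all genes). In that of miR-142-5p against ctrl 2 and 0 passed, in the same order (against 0.496%). With edgeR 0 passed in each, and the limit on the background without this tumour given above holds here too.

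The smallest p among the other hypoxia genes in the test of any difference was that of Ero1l, which encodes an oxidase of the endoplasmic reticulum that forms disulphide bonds (adjusted p = 0.15, DESeq2). It had 209, 186 and 278 TPM with miR-183-5p, 158, 69.0 and 130 with miR-142-5p, 106, 110 and 138 with miR-222-3p and 104, 149 and 134 in ctrl. Each miR-183-5p tumour was above the other 9. Ak4, an adenylate kinase of the mitochondrial matrix, was next (adjusted p = 0.24, DESeq2), at 18.1, 16.5 and 17.9 TPM with miR-183-5p and 15.5, 15.7 and 20.1 in ctrl, above 14.1, 8.00 and 10.4 with miR-142-5p and 11.8, 9.35 and 13.5 with miR-222-3p. Of the other glycolysis genes these were Pgm1, a phosphoglucomutase (adjusted p = 0.71, DESeq2), and the enolase gene Eno2 (adjusted p = 0.74). Eno2 had 92.0, 82.0 and 85.1 TPM with miR-183-5p and 74.4, 82.3 and 85.5 in ctrl, against 74.3, 40.5 and 67.1 with miR-142-5p and 73.5, 48.1 and 61.4 with miR-222-3p. Ak4 and Eno2 thus had ctrl beside the miR-183-5p group, and Ero1l had ctrl beside the other groups.

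Markers of other cells moved with these genes. Over the 12 tumours the mean deviation of the 35 genes correlated with the summed TPM of 5 neutrophil markers at r = 0.81, of 5 erythroid markers at 0.74 and of 5 fibroblast markers at 0.62, and with that of 5 T cell markers at -0.68, 5 macrophage markers at -0.60 and 5 endothelial markers at -0.55. These are descriptions over tumours that share their libraries, with no test. Neutrophil markers summed to between 1793 and 2909 TPM with miR-183-5p, 1004 and 1933 in ctrl, 969 and 1600 with miR-142-5p and 851 and 1916 with miR-222-3p. Most of the sum was S100a8 and S100a9, whereas Ly6g stood between 1.096 and 3.04 TPM. The sum was highest in miR-183-5p tumour 1, but Cxcr2 and Csf3r of the same list were highest in ctrl tumour 3, at 13.9 and 54.3 TPM. The sum and Cxcr2 were both lowest in miR-222-3p tumour 2. In miR-183-5p tumours 1 to 3 Cxcr2 had 11.8, 7.77 and 11.9 TPM and Csf3r had 42.3, 25.7 and 42.8 TPM. Macrophage markers summed to between 584 and 902 TPM with miR-183-5p, 889 and 1141 in ctrl, 994 and 1456 with miR-142-5p and 786 and 1203 with miR-222-3p. Erythroid markers summed to between 435 and 761 TPM with miR-183-5p, 361 and 450 in ctrl, 282 and 680 with miR-142-5p and 151 and 272 with miR-222-3p. Fibroblast markers summed to between 575 and 757 TPM with miR-183-5p, 268 and 571 in ctrl, 180 and 534 with miR-142-5p and 248 and 914 with miR-222-3p. Most of the fibroblast sum was Col1a1 and Col1a2, and Pdgfra had 18.7, 12.8 and 11.6 TPM with miR-183-5p and 12.0, 10.8 and 25.7 in ctrl. The ranges of the miR-183-5p group and ctrl overlapped for neutrophil, macrophage and erythroid markers, and those of the fibroblast sum came within 1% of each other. T cell markers summed to between 20.6 and 137 TPM and endothelial markers to between 90.4 and 145 TPM over all tumours. The sum of the 4T1 epithelial markers correlated at 0.40, keratinocyte markers at 0.57, adipocyte markers at 0.51 and skeletal muscle markers at 0.25. The part of cell content in the differences between groups was not tested.

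**Figure D4:**
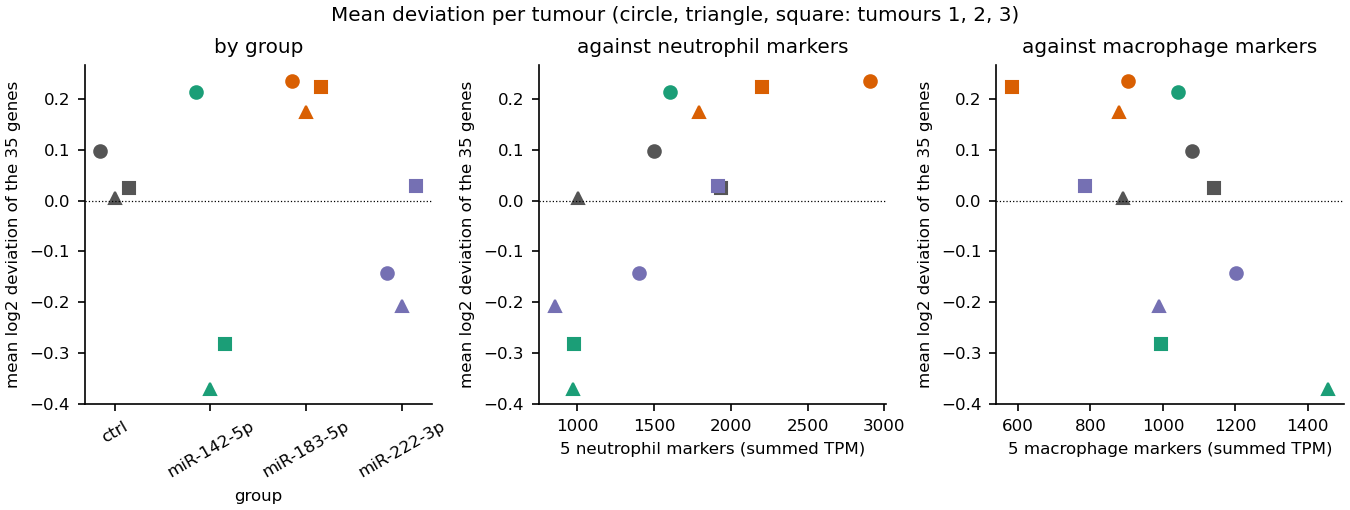
Mean log2 deviation of the 35 genes in each tumour, by group (left) and against the summed TPM of 5 neutrophil markers (middle) and 5 macrophage markers (right); colours mark groups as in the left panel and symbols mark tumours 1, 2 and 3. The 3 miR-183-5p tumours lie together between 0.174 and 0.236, and the miR-142-5p tumours spread from -0.371 to 0.214. Tumours with higher values mostly had a higher neutrophil sum, which is largely S100a8 and S100a9, and a lower macrophage sum.

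Reads of some glycolysis genes were shared with near-identical copies elsewhere in the genome. A search of all transcripts found 110 copies of 11 of the genes, 90 of them copies of Gapdh, and none for the other 24 genes. Copies took between 63.3% and 73.2% of the reads of Gapdh plus its copies, mostly Gm13394 and Gm7336, and between 50.7% and 59.9% of those of Eno1, mostly Eno1b and Gm4735. For Pgk1 they took from 0% to 5.33%, and for the other 8 genes with copies under 0.1%. The TPM of Gapdh and Eno1 are therefore uncertain as levels. With copies added, Gapdh had 5219 ± 556 TPM (SD, n = 3) in ctrl, 4926 ± 814 with miR-142-5p, 6381 ± 847 with miR-183-5p and 5315 ± 660 with miR-222-3p, and Eno1 had 1690 ± 269, 1452 ± 179, 1941 ± 204 and 1538 ± 198. The order of the group means of Gapdh, with miR-183-5p highest and miR-142-5p lowest, was the same with and without copies. For Eno1 ctrl and miR-222-3p changed places, at 690 and 691 TPM without copies. When the copies were added before the fit, again 0 of the 35 genes passed in any contrast (DESeq2), and 31 genes were higher with miR-183-5p than in ctrl.

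**Figure D5:**
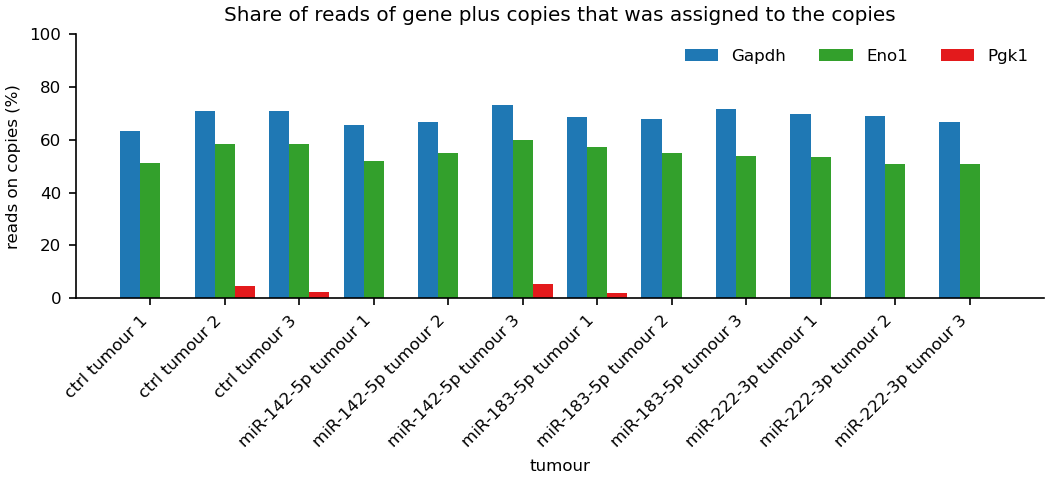
Percentage of the estimated reads of a gene and its near-identical copies that was assigned to the copies, for Gapdh, Eno1 and Pgk1 in each tumour. The bars of Gapdh stand between 63.3% and 73.2% and those of Eno1 between 50.7% and 59.9% in every group, and those of Pgk1 reach 5.33% at most.

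Pkm is spliced with 1 of a pair of mutually exclusive exons, of which the upstream makes the M1 form of pyruvate kinase and the downstream the M2 form typical of proliferating cells. The exons are at chr9:59675029-59675195 (M1) and chr9:59675568-59675734 (M2) on GRCm38, each 167 bases long, and each is carried by 1 annotated transcript. The M2 transcript held 81.7% ± 4.07 (SD, n = 3) of the TPM of both in ctrl, 82.3% ± 3.46 with miR-142-5p, 80.5% ± 1.85 with miR-183-5p and 84.1% ± 2.70 with miR-222-3p. The differences from ctrl were smaller than the spread between tumours (two-sided exact permutation test, p = 1.0, 0.9 and 0.4, n = 3 in each group, where the smallest p the design allows is 0.1, and each 1.0 after Benjamini-Hochberg adjustment over the 3 tests). M2 was the main form in every tumour, between 78.4% and 87.0%, and transcripts with neither exon held between 8.17% and 19.2% of the TPM of Pkm.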

How the data were processed

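Polyadenylated RNA of 12 tumours was sequenced from stranded mRNA libraries, and groups were taken from the sample labels. The authors quantified reads with Salmon on GRCm38. The deposited tables hold, per transcript, the estimated count of reads and the TPM, which the authors' program scales to a fixed sum per library. The annotation release is given differently by the methods and the deposited tables. Transcripts were matched to GENCODE M21 (116710 of 118783, 98.3%), and unmatched transcripts, with 0.633% to 0.671% of reads, were not used. Estimated counts were summed per gene, rounded and tested with DESeq2 1.42.0 (R 4.3.3; Wald test and likelihood ratio test, 12 libraries, effective length as offset, 15459 genes kept, 15413 tested, Benjamini-Hochberg, threshold 0.05). Where an adjusted p is printed as 1.0 or 0.99982 it is that of DESeq2 over all genes.

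The 35 genes, the further lists and the markers were chosen with earlier results of these data known. Values per tumour were given, for each contrast with ctrl, for the 3 genes with the smallest unadjusted p, for the 2 genes with the largest log2 fold change among those without overlap, and for 16 genes of set interest. Of each further list the 2 genes with the smallest p over all groups were named. Groups were called without overlap where every normalised count of one exceeded every count of the other. Copies were transcripts of other genes found with BLAST 2.17.0 (identity at least 95%, at least 200 bases, at least 50% of the copy), named from 5% of reads. The exact permutation test used scipy 1.17.1.

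Results were recomputed with TMM factors, with the quasi-likelihood test of edgeR 4.0.16, and with no count filter, no length offset, 2 groups alone, the replicate number as a block, copies added, a threshold of 0.1 or each tumour left out, and for Pkm with shares of reads or with coding transcripts alone. A further 2 counts without overlap, each leaving out a tumour, and edgeR fits without miR-142-5p tumour 1 and on 2 groups alone were added after seeing the data. The DESeq2 fit was tested on simulated data, in which it recovered most changed genes and the share of false calls was above the nominal level, so its calls are given beside those of edgeR. Python 3.11.15 (pandas 2.3.3, numpy 2.4.6, matplotlib 3.10.9) was used for tables and plots.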

Additional observations from a re-analysis of the deposited data

How the results depend on the processing

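The number of the 35 genes that passed was 0 in all 7 comparisons with edgeR, TMM factors, no count filter, no length offset, copies added and a threshold of 0.1 in DESeq2. With each tumour left out in turn it ranged from 0 to 2 for miR-142-5p against ctrl, from 0 to 17 between miR-183-5p and miR-142-5p and from 0 to 9 for any difference, each upper value being that without miR-142-5p tumour 1, and was 0 for the 4 other contrasts. With only the 2 groups compared it was 1 between miR-183-5p and miR-222-3p, as it was for 0.114% of all genes. With edgeR the number was 0 in each of these fits, so these calls depended on the tool as well as on the tumours. The cause was not tested. Without miR-142-5p tumour 1 the log2 fold changes of Ankrd37 (-1.07 against ctrl) and of Car9, Bnip3l and P4ha2 (0.80, 0.52 and 0.70 between miR-183-5p and miR-142-5p) passed with DESeq2. The median log2 fold change of miR-183-5p against ctrl was 0.25 without miR-183-5p tumour 2. The difference of the Pkm M2 share from ctrl, in percentage points, changed sign with a tumour left out for miR-142-5p (0.69 with all tumours, -0.77 to 3.01) and for miR-183-5p (-1.14 with all, -2.60 to 1.18), which gives neither a direction.

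The replicate number as a block gave 0 passing genes in every comparison and changed no call. Samples of the same number in different groups correlated at -0.068 on average (18 pairs), those of different number at 0.033 (36 pairs), so the numbers were not taken as pairs. The lowest value of any of the 35 genes in any library was 226 reads.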
